A study of Mus musculus with 16 samples.

Results

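Elastic fibre and stromal matrix genes of the mouse mammary gland are described here as a set of 10: Eln, Fbn1, Mfap5, Lox, Loxl1, Dcn, Lum, Dpt, Fn1 and Pi16. They were picked by name, and all 10 were found among the 24187 rows of a table of gene expression. The choice was made with differences between the genotypes already known. The levels and differences of these genes are therefore a description, and no test of them is offered as support. Pi16 encodes a secreted peptidase inhibitor that marks adventitial fibroblasts and is no structural part of the matrix, so the set is wider than the elastic fibre.

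The study examined mammary gland from C57BL/6 mice at day 13 of pregnancy by messenger RNA sequencing. There were 4 wild-type libraries, from mice bought from a commercial breeder, and 3 libraries from Socs2-Δs mice, a line edited with CRISPR/Cas9. The title and source name of the latter read Mut, whereas their genotype tag reads wild type; grouping followed the titles. The labels do not say whether each library came from its own animal, how many edited founders there were or what the deletion removes. The p-values below thus measure the spread between these libraries, which may be technical. Breeding source and genotype cannot be told apart. The other 9 samples, ChIP-seq and DNase-seq, were not analysed here.

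An elastic fibre has a core of cross-linked elastin laid on a scaffold of microfibrils. Fibrillins form the microfibrils, microfibril-associated glycoproteins bind to them, and lysyl oxidases oxidise lysines so that elastin and collagen chains can be joined. Around these fibres lie collagen fibrils, whose width and spacing are set by small leucine-rich proteoglycans and dermatopontin, and fibronectin, on which other matrix proteins assemble. In the mammary gland fibroblasts of the stroma make most of this matrix, around the ducts, the vessels and the fat pad into which alveoli grow during pregnancy.

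Levels are in FPKM, a read count divided by gene length and by library size, so they can be compared between genes. Whole reads recovered from the steps of the values summed to 21.3 to 24.5 M reads per library. Between 860 and 33397 reads lay behind each value of the 10 genes. The edited gene, Socs2, had means of 22.2 ± 4.28 (wild type; SD, n = 4) and 15.7 ± 1.595 FPKM (Socs2-Δs; SD, n = 3), a difference that did not pass (limma adjusted p = 0.267). Markers of the labelled tissue were present throughout: 9 luminal epithelial genes, among them Krt8 and Epcam, summed to 757 to 2053 FPKM per library. A pair of libraries, wild-type replicates 3 and 4, was unlike the rest. Their 10 hepatocyte genes summed to 217 and 2080.2 FPKM, against 7.23 to 10.8 elsewhere, and their 10 salivary gland genes to 441 and 249.7, against 47.6 to 101. Their 5 long noncoding RNAs, led by the nuclear Neat1, summed to 25.4 and 26.2 FPKM, against 495 to 637. These 2 libraries are therefore shown apart, and each difference of the 10 genes is given with and without them.

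Each of the 10 genes had a lower mean in Socs2-Δs glands than in wild type. The median log2 difference, Socs2-Δs minus wild type on log2(FPKM + 1), was -0.97, and it was -0.60 against wild-type replicates 1 and 2 alone. Over the 13392 genes tested, those averaging 1 FPKM or more, the medians were -0.00 and 0.03. Dpt differed most (-1.61) and Fbn1 least (-0.38). For 7 of the 10 every Socs2-Δs library lay below every wild-type library, namely Mfap5, Lox, Loxl1, Dcn, Lum, Dpt and Pi16; of all genes tested, 10% were lower without overlap. Called at a Benjamini-Hochberg adjusted p under 0.05 in limma were 0 of the 10, beside 0% of all genes called lower and 0.0448% called higher. At an unadjusted p under 0.05, 7 of the 10 were lower and 0 higher, beside 8.98% of all genes lower and 9.12% higher. Against wild-type replicates 1 and 2, 8 of the 10 were lower without overlap (18.1% of all genes), 0 were called (0.68% of all genes called lower) and 7 were lower and 0 higher at an unadjusted p under 0.05 (10.8% of all genes lower, 9.35% higher). Nothing is read from these counts, since the genes were chosen on this comparison. In bulk tissue fewer cells of a type and less RNA per cell cannot be told apart.

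**Figure D1:**
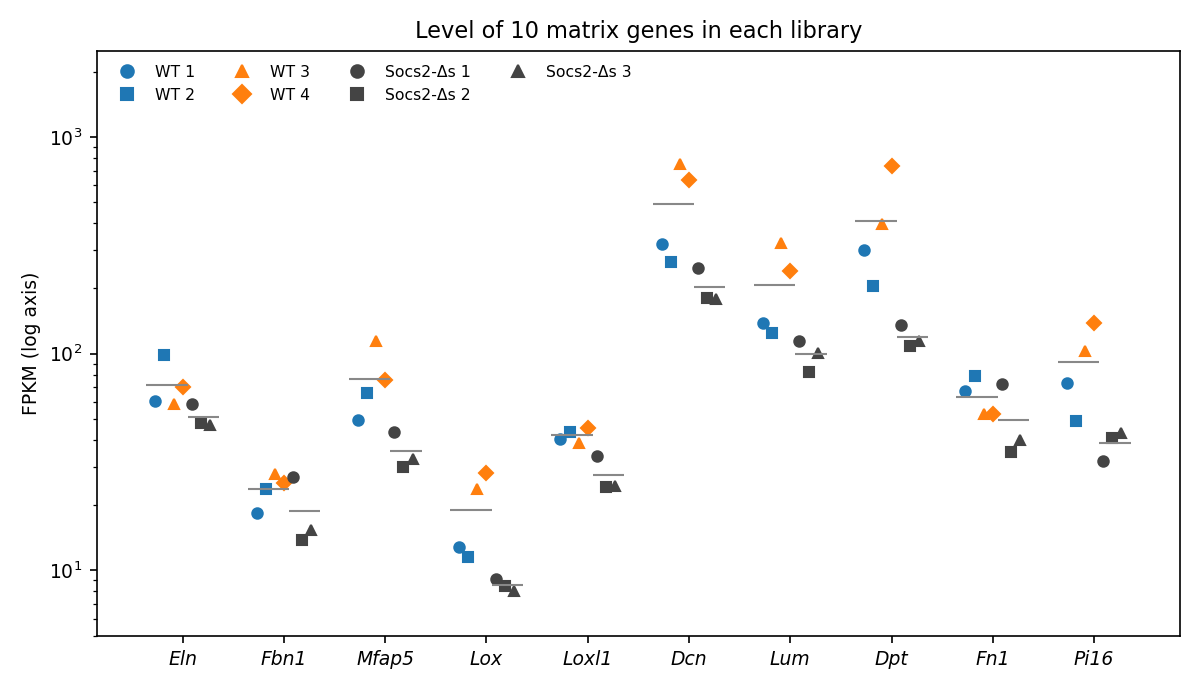
FPKM of the 10 matrix genes (log axis) in each of the 7 libraries; colours separate wild-type replicates 1 and 2, wild-type replicates 3 and 4, and Socs2-Δs, and grey lines are group means. The Socs2-Δs libraries lie lowest for 7 genes, and wild-type replicates 3 and 4 lie highest for Mfap5, Lox, Dcn, Lum, Dpt and Pi16.

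Promoter sequences were matched for 3 of the 10 genes, from RefSeq on GRCm38.p6: Dpt, which differed most, Pi16, and Fbn1, which differed least. They are shown because the series concerns the transcription factor STAT5, whose known binding motif is TTCNNNGAA. Each line gives the 250 bases before the annotated start, 5′ to 3′ on the gene's strand, at chr1:164796413-164796662 (plus strand) for Dpt, chr17:29318632-29318881 (plus) for Pi16 and chr2:125506439-125506688 (minus) for Fbn1. Capitals mark a match to 1 of 5 motifs, searched on both strands: TTCNNNGAA for STAT factors, TGANTCA for AP-1, GGAATG for TEAD factors, TATAAA for the TATA box and CAGACA for SMAD factors.
Dpt: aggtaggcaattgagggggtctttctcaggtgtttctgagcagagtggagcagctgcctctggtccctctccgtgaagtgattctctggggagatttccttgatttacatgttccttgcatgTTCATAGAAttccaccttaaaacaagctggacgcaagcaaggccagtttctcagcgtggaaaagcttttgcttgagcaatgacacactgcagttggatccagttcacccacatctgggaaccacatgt
Pi16: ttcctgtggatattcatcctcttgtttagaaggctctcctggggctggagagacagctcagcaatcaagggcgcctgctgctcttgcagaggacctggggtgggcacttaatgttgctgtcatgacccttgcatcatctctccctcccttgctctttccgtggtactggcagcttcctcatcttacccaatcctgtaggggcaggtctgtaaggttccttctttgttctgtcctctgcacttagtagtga
Fbn1: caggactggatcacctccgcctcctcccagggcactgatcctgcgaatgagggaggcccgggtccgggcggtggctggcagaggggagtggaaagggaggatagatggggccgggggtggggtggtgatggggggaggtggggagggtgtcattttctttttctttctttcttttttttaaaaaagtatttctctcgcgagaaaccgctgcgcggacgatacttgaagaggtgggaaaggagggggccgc
Dpt held 1 match, to TTCNNNGAA, at 128 to 120 bases before the start, and Pi16 and Fbn1 held none of the 5 motifs. TTCNNNGAA is present in 7.02% of the 32851 promoter windows of this length in the table. TGANTCA is present in 6.75%, GGAATG in 12.6%, TATAAA in 12.4% and CAGACA in 17.1%. G and C made up 48.8% of the Dpt window, 52.4% of that of Pi16 and 59.2% of that of Fbn1, beside a median of 52.4%. A match to these letters is a description of the sequence and shows no binding.

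Of the core and scaffold of the elastic fibre, Mfap5 separated the groups, whereas Eln and Fbn1 overlapped between them. Eln (Entrez 13717) encodes elastin. It measured 60.4, 98.2, 58.8 and 70.4 FPKM in wild-type replicates 1 to 4, and 58.8, 48.0 and 46.9 in Socs2-Δs replicates 1 to 3. Wild-type replicate 2 was the high library, and wild-type replicate 3 (58.75) lay just under Socs2-Δs replicate 1 (58.84), so the groups overlapped. The means were 71.9 ± 18.3 (SD, n = 4) and 51.2 ± 6.597 FPKM (SD, n = 3), with a log2 difference of -0.46 (SE 0.22), or -0.59 (SE 0.23) without wild-type replicates 3 and 4. Fbn1 (Entrez 14118) encodes fibrillin-1, the main microfibril protein of adult tissue. Its values were 18.4, 23.7, 27.9 and 25.4 FPKM in wild type and 27.1, 13.9 and 15.3 in Socs2-Δs. Socs2-Δs replicate 1 lay among the highest wild-type libraries, while the other 2 lay below all 4 of them. The Fbn1 means were 23.9 ± 4.02 and 18.8 ± 7.23 FPKM (SD, n = 4 and 3; log2 difference -0.38, SE 0.25; -0.21, SE 0.30, without wild-type replicates 3 and 4). Mfap5 (Entrez 50530) encodes a microfibril-associated glycoprotein that binds fibrillin. It measured 49.5, 65.9, 114 and 75.7 FPKM in wild type and 43.6, 30.0 and 32.7 in Socs2-Δs, with no overlap. Wild-type replicate 3 alone reached more than 100 FPKM. The Mfap5 means were 76.3 ± 27.4 and 35.4 ± 7.21 FPKM (log2 difference -1.04, SE 0.29; -0.69, SE 0.21, without wild-type replicates 3 and 4).

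The cross-linking enzymes separated the groups, and they did so in unlike ways. Loxl1 (Entrez 16949) encodes the lysyl oxidase that acts on elastin and binds the fibre scaffold. It was the steadiest of the 10 in wild type, with 40.6, 43.6, 38.7 and 45.4 FPKM, and measured 33.6, 24.3 and 24.6 in Socs2-Δs. The log2 difference was -0.61 (SE 0.17) with all libraries and -0.61 (SE 0.17) without wild-type replicates 3 and 4, so these 2 libraries did not move it. Lox (Entrez 16948) encodes lysyl oxidase itself, which acts on collagen and elastin. Its values were 12.8, 11.5, 23.8 and 28.3 FPKM in wild type and 9.16, 8.52 and 8.07 in Socs2-Δs. Wild-type replicates 3 and 4 were about 2.14 times as high as replicates 1 and 2, and the Socs2-Δs libraries lay close together. The log2 difference of Lox was -0.98 (SE 0.31) with all libraries and -0.46 (SE 0.11) without those 2. Within a library Loxl1 measured 3.16 and 3.799 times as much as Lox in wild-type replicates 1 and 2 and 2.85 to 3.67 times in Socs2-Δs. The ratio came to 1.62 and 1.61 in wild-type replicates 3 and 4, below every other library.

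The proteoglycans that coat collagen fibrils, Dcn and Lum, were among the 3 members of highest level and lay lower in Socs2-Δs in every library. Dcn (Entrez 13179) encodes decorin, the small leucine-rich proteoglycan that binds collagen and holds growth factors in the matrix. It measured 319, 265, 752 and 634 FPKM in wild type and 249.8, 181 and 178 in Socs2-Δs. The groups did not overlap, but the gap between the lowest wild-type and the highest Socs2-Δs library was smaller than the spread within wild type. The means were 493 ± 238 and 203 ± 40.5 FPKM, a log2 difference of -1.16 (SE 0.41) that was -0.53 (SE 0.21) without wild-type replicates 3 and 4. Lum (Entrez 17022) encodes lumican, a proteoglycan of the same family that limits fibril width. Its values were 138, 125, 326 and 240.2 FPKM in wild type and 114, 82.8 and 101 in Socs2-Δs. The log2 difference was -0.96 (SE 0.36), and -0.42 (SE 0.17) without wild-type replicates 3 and 4. Lum follows Dcn directly in the gene order of the assembly GRCm38.p6, and the profiles of these 2 genes over the 7 libraries were the most alike of the 45 pairs. The ratio of Dcn to Lum stayed between 1.77 and 2.64 in all 7 libraries.

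**Figure D2:**
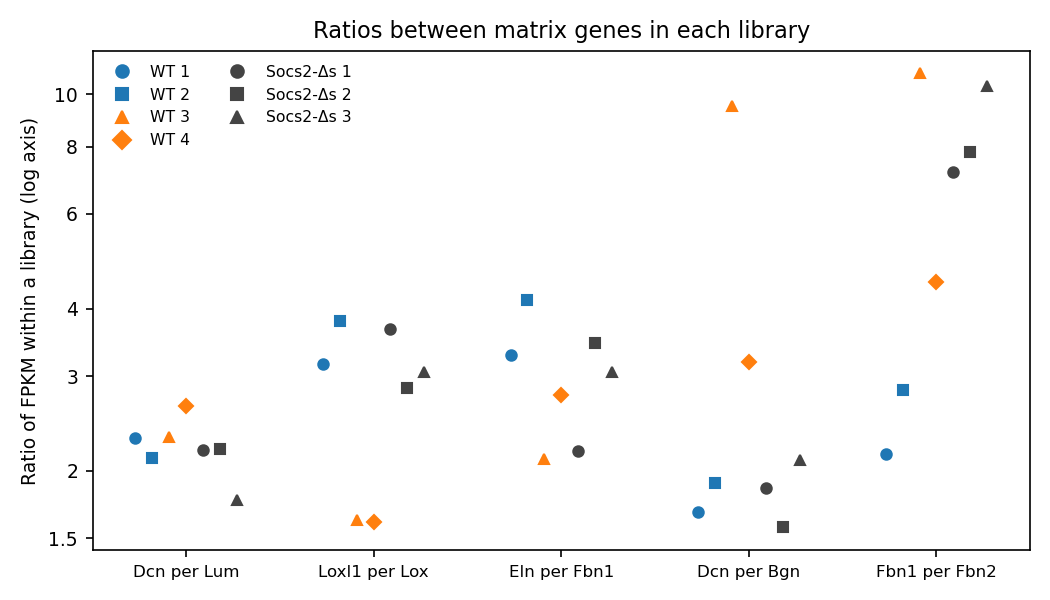
Ratios of FPKM within each library (log axis), with colours and symbols for the 7 libraries as labelled. Dcn per Lum spans 1.77 to 2.64, whereas Loxl1 per Lox is lowest in wild-type replicates 3 and 4 (1.62 and 1.61) and Fbn1 per Fbn2 is lowest in wild-type replicates 1 and 2 (2.15 and 2.83).

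Dermatopontin differed most. Dpt (Entrez 56429) encodes this small protein, which binds decorin and promotes the assembly of collagen fibrils. It measured 300.1, 205, 397 and 732 FPKM in wild type and 135, 109 and 114 in Socs2-Δs. Every wild-type library lay above every Socs2-Δs library, and wild-type replicate 4 was the highest. The means were 408 ± 229 and 119 ± 14.0 FPKM (SD, n = 4 and 3), a ratio of 3.42, and the ratio was 2.12 against wild-type replicates 1 and 2. The log2 difference was -1.61 (SE 0.41), and -1.05 (SE 0.21) without wild-type replicates 3 and 4. Pi16 (Entrez 74116) measured 73.3, 48.7, 103 and 139 FPKM in wild type and 32.01, 40.7 and 43.3 in Socs2-Δs. Wild-type replicate 2 lay close above the Socs2-Δs libraries, and the log2 difference was -1.12 (SE 0.34), or -0.63 (SE 0.22) without wild-type replicates 3 and 4. Fn1 (Entrez 14268) encodes fibronectin, which cells of the stroma deposit and which the liver also secretes into plasma. Its values were 67.2, 79.3, 52.9 and 52.8 FPKM in wild type and 72.5, 35.2 and 40.1 in Socs2-Δs. Socs2-Δs replicate 1 lay above 3 of the 4 wild-type libraries, as it did for Fbn1. The log2 difference was -0.40 (SE 0.28), and -0.63 (SE 0.32) without wild-type replicates 3 and 4. The part of the hepatocyte RNA in the Fn1 level of those 2 libraries was not tested.

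**Figure D3:**
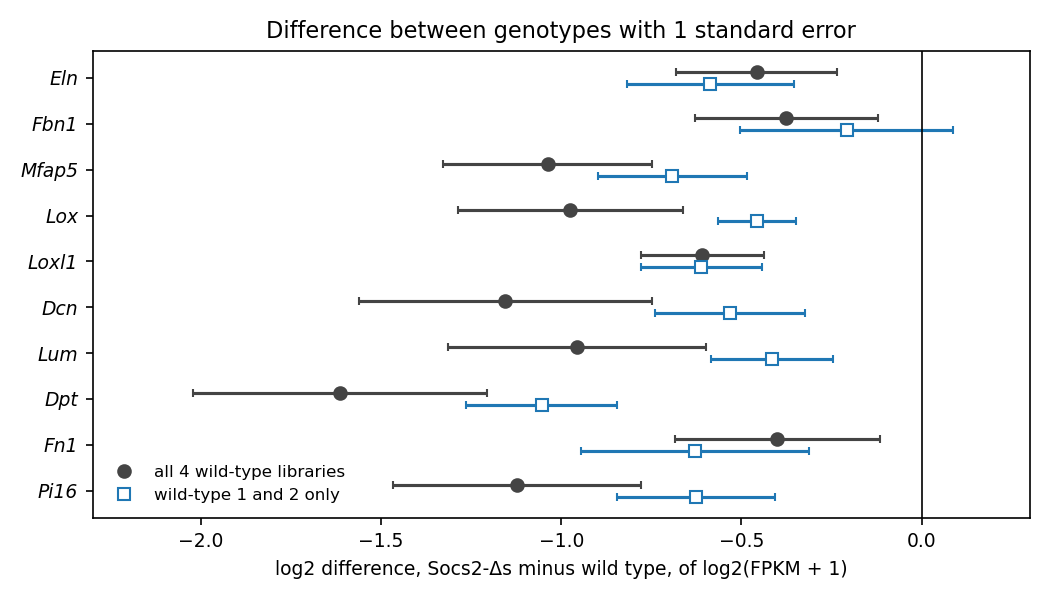
Log2 difference, Socs2-Δs minus wild type, of log2(FPKM + 1) for the 10 genes with 1 standard error, with all 4 wild-type libraries (filled) and with wild-type replicates 1 and 2 only (open). Every point lies below 0; the open points are nearer to 0 for 7 genes, level for Loxl1 (-0.61), and farther for Eln and Fn1.

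By mean level Dcn and Dpt were highest in both groups, followed by Lum, and Fbn1 and Lox were lowest. In between, Pi16 and Mfap5 ranked 4 and 5 in wild type and 6 and 7 in Socs2-Δs. Eln and Fn1 ranked 6 and 7 in wild type and 4 and 5 in Socs2-Δs. In wild type the neighbours Dcn (493 ± 238 FPKM) and Dpt (408 ± 229) did not differ beyond their spread, nor did Mfap5 (76.3 ± 27.4), Eln (71.9 ± 18.3) and Fn1 (63.0 ± 12.8). In Socs2-Δs, Dcn (203 ± 40.5) lay above Dpt (119 ± 14.0) in each library. Within wild-type libraries Dcn also lay above Dpt in replicates 1, 2 and 3, but not in replicate 4 (634 against 732 FPKM). Pi16 lay above Eln by mean level in wild type (91.1 ± 39.1 against 71.9 ± 18.3) and below it in Socs2-Δs (38.7 ± 5.91 against 51.2 ± 6.597). Means in wild-type replicates 1 and 2 alone were 79.3 (Eln), 73.2 (Fn1), 61.0 (Pi16) and 57.7 FPKM (Mfap5). That is the order of these genes in Socs2-Δs, so the change of order rests on wild-type replicates 3 and 4. The sum of the 10 genes was 1080 FPKM for wild-type replicate 1 and 965 for replicate 2. It was higher for wild-type replicate 3 (1895) and replicate 4 (2043), so the upper part of the wild-type range rests on these 2 libraries. Across the Socs2-Δs libraries the sum ran from 573 to 776.

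Among themselves the 10 genes fell into a pair of patterns across the wild-type libraries, a division made after their values were seen. Mfap5, Lox, Dcn, Lum, Dpt and Pi16 were higher in wild-type replicates 3 and 4 than in replicates 1 and 2, by 0.69 (Mfap5) to 1.25 (Dcn) on the log2(FPKM + 1) scale. Fbn1 was higher by 0.33, while Eln (-0.26), Loxl1 (-0.01) and Fn1 (-0.46) were not higher in both. Of all genes tested, 34.1% were higher in both replicates 3 and 4 than in both replicates 1 and 2, and 30.3% were lower. In these 2 libraries shorter genes read higher: the median log2 difference from wild-type replicates 1 and 2 was 0.38 in the 3348 genes of shortest counted length and -0.09 in the 3348 longest. Mfap5 and Dpt are among those shortest genes and Fbn1, Fn1 and Lox among the longest. In wild-type replicate 3 the 8 skeletal muscle genes summed to 985 FPKM, against 40.9 to 238 in the other libraries. The part of length, of the hepatocyte, salivary and muscle RNA, and of the low nuclear RNA in this pattern was not tested.

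**Figure D4:**
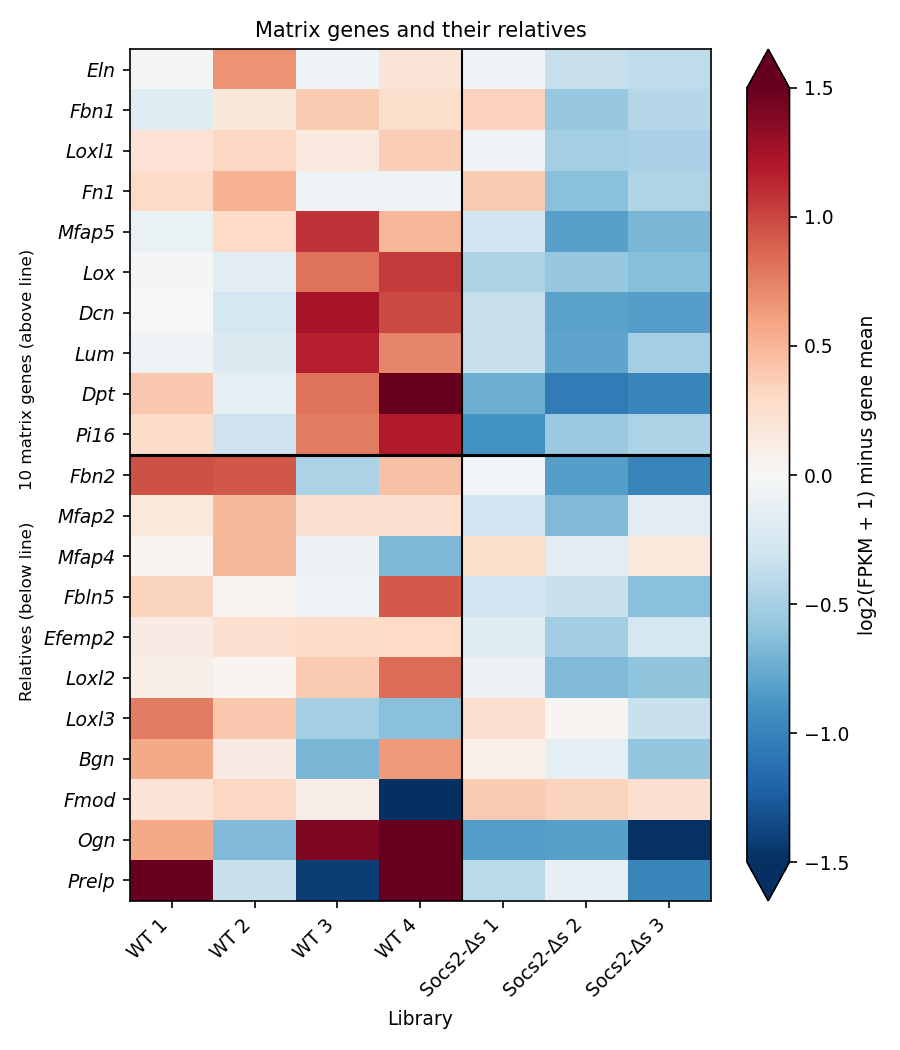
Log2(FPKM + 1) minus the gene's mean over the 7 libraries, for the 10 matrix genes (above the line) and 11 relatives (below it), with values beyond 1.5 in either direction shown in the end colour. Mfap5, Lox, Dcn, Lum, Dpt and Pi16 are red in wild-type replicates 3 and 4; Fbn2 and Loxl3 are highest in wild-type replicates 1 and 2.

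Genes with the nearest profile were sought by the root mean square difference of centred log2 values over the 7 libraries. Nearest to the median profile of the 10 were Pth1r, the parathyroid hormone receptor (0.06), Fkbp14, a prolyl isomerase of the endoplasmic reticulum (0.07), Slc25a24, a mitochondrial carrier (0.08), Car8 (0.09) and the receptor tyrosine kinase gene Axl (0.10). For the median gene this difference was 0.55. Pth1r, for example, measured 9.74, 10.2, 16.01 and 15.2 FPKM in wild type and 7.69, 5.98 and 6.07 in Socs2-Δs. This likeness is a description over 7 libraries, and all 10 genes share those libraries.

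Most other genes of the elastic fibre had a difference below 0, and none passed. Of 22 genes listed as microfibril and elastic fibre genes by function or name, 20 were tested and 15 had a difference below 0. The 15 include Mfap1a and Mfap1b (-0.02 and -0.005), which were listed by name and not by function. In limma 0 of the 20 were called lower or higher, and at an unadjusted p under 0.05, 7 were lower and 0 higher. Over all genes tested 50.4% had a difference below 0, and 8.98% were lower and 9.12% higher at that p. The median of the 20 was -0.21, and -0.51 without wild-type replicates 3 and 4. Emilin2, which encodes a glycoprotein found with elastic fibres, measured 16.3 ± 1.70 FPKM in wild type and 8.67 ± 2.05 in Socs2-Δs (SD, n = 4 and 3; log2 difference -0.86, limma adjusted p = 0.126). Efemp1, or fibulin-3, measured 56.0 ± 15.1 and 24.8 ± 8.99 FPKM (-1.16, limma adjusted p = 0.158). Efemp2, or fibulin-4, which brings Lox to elastin, measured 24.1 ± 1.33 and 16.02 ± 1.996 FPKM (-0.57, limma adjusted p = 0.163). Mfap2, the closest relative of Mfap5, measured 43.6 ± 4.55 and 27.6 ± 4.97 FPKM (-0.65, limma adjusted p = 0.168). The 4 wild-type libraries spanned 39.9 to 50.2 FPKM for Mfap2, against 49.5 to 114 for Mfap5. Fbln5, or fibulin-5, which ties elastin to the microfibrils and to cells, differed by -0.72 and Fbln1 by -0.95 (limma adjusted p = 0.223 and 0.221). Mfap4 measured 17.5 ± 5.90 and 18.8 ± 3.003 FPKM (0.14, limma adjusted p = 0.771), and -0.17 without wild-type replicates 3 and 4.

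Fibrillin-2, which is prominent in growing tissue, had another pattern than fibrillin-1. Fbn2 measured 8.57, 8.39, 2.55 and 5.65 FPKM in wild type and 3.78, 1.78 and 1.48 in Socs2-Δs. Wild-type replicate 3 lay within the Socs2-Δs range, and the log2 difference was -1.08 (limma adjusted p = 0.230). Without wild-type replicates 3 and 4 it was -1.56 (limma adjusted p = 0.0636). The ratio of Fbn1 to Fbn2 came to 2.15 and 2.83 in the first 2 wild-type libraries, to 10.9 and 4.49 in the other 2, and to 7.17 to 10.4 in Socs2-Δs. In the lysyl oxidase family Loxl2 measured 14.2 ± 4.14 and 7.72 ± 1.98 FPKM (-0.79, limma adjusted p = 0.193), with -0.51 when wild-type replicates 3 and 4 were left out. Loxl3 measured 8.13, 6.09, 2.76 and 2.46 FPKM in wild type and 5.37, 4.47 and 3.26 in Socs2-Δs (-0.02, and -0.60 without wild-type replicates 3 and 4). Loxl4 was under 1 FPKM on average and was not tested.

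Among 15 other small leucine-rich proteoglycans, 10 were tested and 0 were called in limma; at an unadjusted p under 0.05, 4 were lower and 0 higher, beside 8.98% and 9.12% of all genes. Their median difference was -0.68, and -0.46 without wild-type replicates 3 and 4. Ogn, which encodes osteoglycin, measured 63.6, 26.4, 114 and 154 FPKM in wild type and 23.3, 23.8 and 14.6 in Socs2-Δs (-1.83, limma adjusted p = 0.187; -0.99 without wild-type replicates 3 and 4). Its lowest wild-type library lay close above the highest Socs2-Δs library. Bgn, biglycan, the closest relative of decorin, measured 189.9, 139, 79.1 and 199 FPKM in wild type and 134, 115 and 85.0 in Socs2-Δs (-0.38, limma adjusted p = 0.539). The ratio of Dcn to Bgn spanned 1.57 to 2.10 in Socs2-Δs and the first 2 wild-type libraries, and reached 9.51 and 3.19 in wild-type replicates 3 and 4. Prelp, from 16.1 to 145 FPKM in wild type, had a wide spread (-0.89, limma adjusted p = 0.503). Kera, the next gene after Lum in gene order, measured 2.60 ± 1.18 and 1.11 ± 0.27 FPKM (-0.73, limma adjusted p = 0.228). Aspn, Omd and Ecm2, which lie beside Ogn, differed by -0.88, -0.76 and -0.63 (limma adjusted p = 0.269, 0.283 and 0.252), and by -0.31, -0.34 and -0.35 without wild-type replicates 3 and 4. Fmod, fibromodulin, measured 24.6 ± 1.33 FPKM in Socs2-Δs and 5.85 to 24.4 in wild type, with wild-type replicate 4 lowest (0.56, limma adjusted p = 0.478; 0.06 without wild-type replicates 3 and 4).

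Of the 18 fibronectin receptors and matricellular proteins tested, 0 were called in limma with 7 libraries; at an unadjusted p under 0.05, 6 were lower and 1 was higher, beside 8.98% and 9.12% of all genes. The higher one was Tnc, which encodes tenascin-C, a matrix protein that binds fibronectin and loosens cell adhesion. It measured 5.15, 5.94, 4.199 and 2.36 FPKM in wild type and 11.9, 11.6 and 12.4 in Socs2-Δs. The Socs2-Δs libraries lay close together and above every wild-type library. The log2 difference was 1.31 (SE 0.25, limma adjusted p = 0.116). Against wild-type replicates 1 and 2 Tnc rose (0.99, SE 0.11, limma adjusted p = 0.0248), beside 1.26% of all genes called higher and 0.68% called lower in that comparison. Leaving out any further library of the 5, an analysis added after the data were seen, ended that call, with limma adjusted p from 0.0712 to 0.220. Vcan, the large proteoglycan versican, differed by -0.87, Fstl1 by -0.90, Thbs2, thrombospondin-2, by -1.15 and Nid1, the basement membrane linker nidogen-1, by -0.85 (limma adjusted p = 0.167, 0.174, 0.204 and 0.210).

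Fibroblast identity genes, listed as markers of the cells that make the matrix, had a median below 0 as well. The list includes collagen genes, which are matrix genes themselves, and whether its genes are limited to fibroblasts was not tested. The 20 fibroblast identity genes had a median of -0.79, against -0.97 for the 10 matrix genes, and medians of -0.52 and -0.60 without wild-type replicates 3 and 4. In limma 0 of the 20 were called; at an unadjusted p under 0.05, 11 were lower and 0 higher, beside 8.98% and 9.12% of all genes. Of the 20, 19 had a difference below 0, beside 50.4% of all genes tested. Col1a1 (0.09), Pdgfrb (-0.0003) and Col15a1 (-0.10) lay near 0, and Col1a1 was at -0.50 without wild-type replicates 3 and 4. The genes named next are the 5 of smallest p. Twist2 and Prrx1, transcription factors of mesenchyme, differed by -0.78 and -1.10 (limma adjusted p = 0.135 and 0.158). Clec3b, or tetranectin, measured 228 ± 111 and 78.2 ± 6.10 FPKM (-1.40, limma adjusted p = 0.167). Igfbp6 differed by -1.37 and Cd248, or endosialin, by -0.71 (limma adjusted p = 0.167 and 0.171). Without wild-type replicates 3 and 4 the differences were -0.77 for Clec3b, -0.79 for Igfbp6 and -0.67 for Prrx1. The 20 genes summed to 3099 to 5271 FPKM in wild type and 2084 to 2579 in Socs2-Δs. A few genes carried much of this sum. Gsn alone measured 512 to 2316 FPKM in wild type and 373 to 588 in Socs2-Δs, and Col3a1 674 to 845 and 492 to 738. In the same libraries 12 adipocyte genes summed to 11645 to 24944 and 3927 to 7221 FPKM. The 10 alveolar secretory genes summed to 4044 to 45790.3 and 80771 to 107457 FPKM. The 7 macrophage genes summed to 155 to 202 and 102 to 135 FPKM, with a median of -0.72, and 0 were called in limma. At an unadjusted p under 0.05, 6 of 7 were lower, beside 8.98% of all genes. Without overlap 6 of 7 were lower, beside 10% of all genes. The 10 myoepithelial and smooth muscle genes summed to 759 to 1422 and 1171 to 1398 FPKM, and 5 of 10 had a difference below 0. As to the others, 12 of 12 adipocyte genes had a difference below 0 (median -1.27) and 0 of 10 alveolar genes did (median 2.50), and no gene of these 5 lists was at 0 in any library. The part of these shifts in the levels of the 10 matrix genes was not tested.

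**Figure D5:**
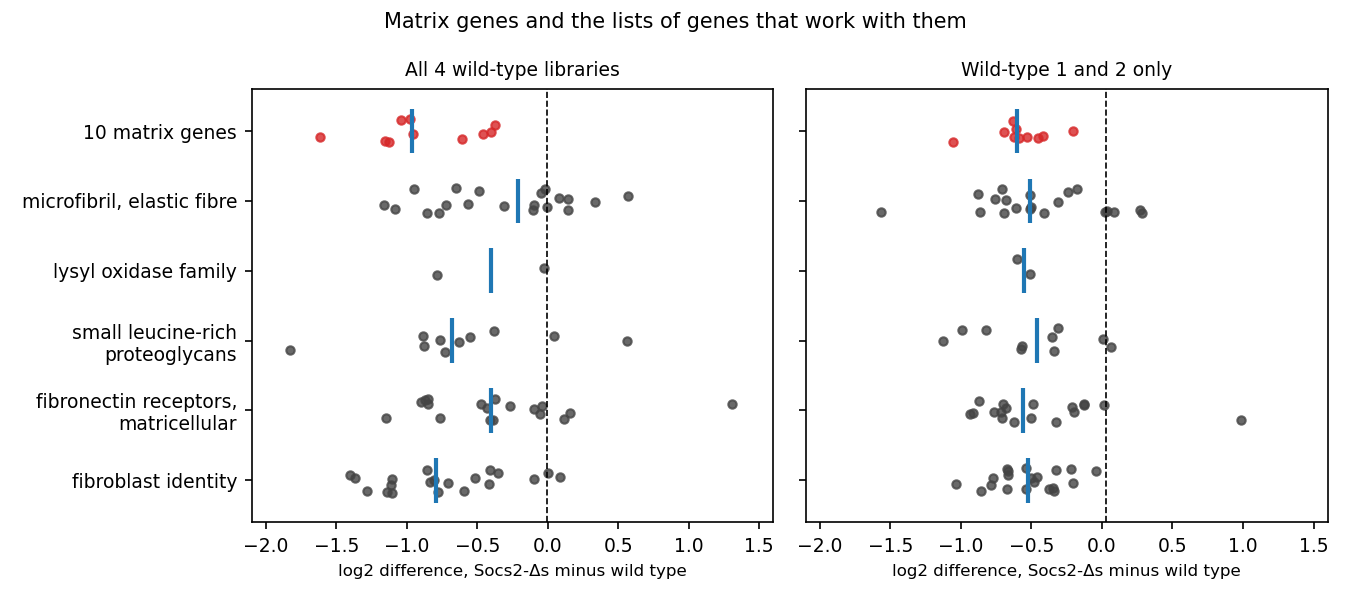
Log2 difference, Socs2-Δs minus wild type, of each tested gene (points, with vertical spread only for legibility). Shown are the 10 matrix genes and 5 lists chosen by function or name, with list medians (blue) and the median of all genes tested (dashed). With all libraries (left) the medians are -0.97 for the 10 genes and -0.21 to -0.79 for the lists; against wild-type replicates 1 and 2 (right) they are -0.60 and -0.46 to -0.56, and Tnc is the point at 0.99.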

How the data were processed

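The authors deposited FPKM per gene for 7 RNA libraries in 1 table of 24187 rows, with 3143 rows at 0 throughout. Poly(A) selection and TruSeq library preparation are described per the labels' protocols. Per the submitters' processing notes, CASAVA, Bowtie2, STAR and DESeq2 are named, with mm9 as the build; their versions and roles, the annotation and the use of strand were not stated there. Overlapping or antisense genes can share reads.

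Whole reads were recovered for 21044 of 21044 rows above 0 (tolerance 0.02), so that relative depth is known. Genotypes were compared with limma 3.58.1 under R 4.3.3, using empirical Bayes moderation with a trend and log2(FPKM + 1) values. The fit took 13392 genes averaging 1 FPKM or more, with no covariate and Benjamini-Hochberg adjustment over all of them; the read recovery and the fit were tested on simulated data. Differences on this scale understate changes of low genes. Without wild-type replicates 3 and 4, the same genes were fitted on 5 libraries.

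The 10 genes and all lists were chosen with earlier results of these data known. Lists were written by function, except that Mfap1a and Mfap1b were listed by name. Named beside the 10 genes were Socs2, 12 fixed relatives, up to 5 genes of smallest p per list and the 5 nearest profiles. Pth1r, Fkbp14, Slc25a24, Car8 and Axl are those 5. Ccn1, Ccn2 and Adgre1 were found under their older symbols Cyr61, Ctgf and Emr1. Promoters came from RefSeq on GRCm38.p6, not the build of the files. The 9 other samples were left out. Alternatives were another pseudocount, scaling, filter, weights, a replicate block and left-out libraries.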

Additional observations from a re-analysis of the deposited data

How the results depend on the processing

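All 10 matrix genes kept a difference below 0 under each of the 14 alternatives, with ranges from -1.89 to -1.05 for Dpt and from -0.66 to -0.20 for Fbn1. Their median was -0.97, -0.60 without wild-type replicates 3 and 4, and -1.12 to -0.76 with single replicates left out. Lox (-0.46), Dcn (-0.53) and Lum (-0.42) without wild-type replicates 3 and 4, and Pi16 (-0.59) with array weights, moved by more than 1 SD. The cause was not tested.

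Counts of called genes depended on the libraries. Over all genes 6 were called higher and 0 lower. The counts of higher genes were 1 with a pseudocount of 0.1, 1 without a filter, 25 after quantile normalization (3 lower), 169 without wild-type replicates 3 and 4 (91 lower) and 635 with array weights (736 lower). Single left-out replicates gave 0 to 31 higher and 0 to 1 lower genes. Array weights gave wild-type replicates 3 and 4 weights of 0.172 and 0.173 against 1.06 to 4.76 elsewhere. They called Eln, Mfap5, Loxl1 and Dpt lower among the 10, beside 5.5% of all genes, and in the 5 lists 19 genes lower and 1 (Tnc) higher. Without wild-type replicates 3 and 4, 1 list gene (Tnc) was called higher, and 0 with all libraries. Loxl3 turned to 0.23 and 0.11 without wild-type replicate 1 or 2 and to 0.13 without Socs2-Δs replicate 3. Mfap4 turned to -0.31 with array weights, -0.17 without wild-type replicates 3 and 4, and -0.059 without wild-type replicate 4. Over single left-out replicates Loxl3 ran from -0.24 to 0.23 and Mfap4 from -0.059 to 0.33.

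With the replicate number as a block, over replicates 1 to 3 of both groups (wild-type replicate 4 left out), 0 genes were called higher or lower. In this balanced layout the block cannot change a difference. The values for Mfap4 (-0.059) and for the median of the 10 (-0.81) are thus those without wild-type replicate 4. Deviations of same-numbered libraries correlated at 0.35, -0.104 and 0.283 across genes, and those of other pairs at -0.196 to 0.338. The labels do not say whether the numbers pair the samples, and these values cannot decide it.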
